A study of Homo sapiens with 6 samples.

Results

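The collagen, laminin and integrin genes of HEK293 cells were examined after knockdown of the long noncoding RNA *HSALNG0134318*. Members were the gene symbols built as COL, number, A, number, as LAM with an A, B or C chain, or as ITG with an A or B subunit, with at least 10 counts in each of the 6 libraries. Of 82 symbols of this form, 57 met the minimum, namely 28 collagens, 11 laminins and 18 integrins, among 26485 genes listed in all. The rule uses names and counts, not changes, but it was set with earlier results of these data known.

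HEK293 is an established line derived from human embryonic kidney. Polyadenylated RNA was sequenced from 3 cultures labelled *HSALNG0134318* knockdown (KD-1, KD-4 and KD-5, replicates 1 to 3) and 3 control cultures (NC-10, NC-11 and NC-1, replicates 1 to 3), whose labels read WT under genotype. The knockdown cultures were transfected transiently, with RNAiMAX, with a Smart Silencer, in which antisense oligonucleotides and small interfering RNAs against the same transcript are combined. What the control cultures received is not named in the sources used here, and no time after transfection was taken from the labels. *HSALNG0134318* lies in the distal part of the 22q11.2 region, whose copy number changes are found in people with malformed kidneys or urinary tracts, and the comparison asks which genes change when its level is lowered. Its own level was not analysed here, so the values below carry no check of the knockdown itself.

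Collagens and laminins are secreted matrix proteins, and integrins are the cell surface receptors that hold cells to them. Type IV collagen forms a network and laminins a polymer, and the basement membrane under epithelia, including the filter of the kidney glomerulus, is made mainly of these sheets together. Each integrin is a heterodimer of an alpha and a beta subunit. The alpha subunit largely sets which matrix protein is bound, and talin and kindlin link the beta tail to the actin skeleton.

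The libraries held 13900965 to 16869948 counts. Values are given as normalized counts, that is counts divided by the TMM-scaled library size and multiplied by the mean of those sizes over the 6 libraries. Over all 14877 genes tested, control replicate 3 lay nearer to the knockdown libraries than the other controls did, with root mean square log2 distances of 0.397 to 0.413 against 0.467 to 0.545. Of the HEK293 background genes, neurofilament and early kidney genes, 5 of 6 had at least 10 counts in a library, and their summed level was 4291 to 4631 in knockdown and 3522 to 4166 in control. Of the markers of other cell types, 0 of 4 endothelial, 0 of 2 podocyte and 0 of 2 hepatocyte markers reached 10 counts in any library, and *CD3E* was at 0. The 3 proximal tubule markers summed to 556 to 679 normalized counts in knockdown and 800 to 1172 in control, without overlap, chiefly through *LRP2*, and their part in the results was not tested. The 5 fibroblast markers summed to 16.4 to 62.3 normalized counts in knockdown and 8.03 to 28.6 in control, with 3 of 5 reaching 10 counts in a library, and their part in the collagen values was not tested. Fewer cells of a type and less RNA per cell cannot be told apart in such bulk libraries.

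The members made up 0.468%, 0.455% and 0.458% of all counts in the knockdown replicates and 0.423%, 0.388% and 0.450% in the controls. The groups did not overlap, but control replicate 3 came close to the lowest knockdown library. Per kilobase of the canonical transcript, the most abundant member was *ITGB1*, the beta subunit shared by most matrix-binding integrins, at a mean level of 2113 normalized counts per kilobase over all libraries. *LAMC1*, the gamma chain of most laminins, followed with 1524. Next came *COL4A2* (688), *COL6A1* (638) and *LAMB1* (512.5). Among alpha subunits *ITGA6*, which makes laminin receptors, was highest at 403 per kilobase, and among laminin alpha chains *LAMA4* at 356. The leading fibrillar collagen was *COL2A1* (146), the leading fibril-associated collagen *COL14A1* (139), the leading membrane-spanning collagen *COL25A1* (38.2), and *COL18A1*, the source of endostatin, stood at 224. Each of the 5 members highest per kilobase was thus a basement membrane chain, a type VI collagen chain or the common beta subunit, and no fibrillar collagen was among them.

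After knockdown, 8 of the 57 members rose and none fell at an adjusted p under 0.05 (edgeR quasi-likelihood test, Benjamini-Hochberg adjustment over 14877 genes). The 8 were *LAMA4*, *COL4A6*, *COL4A3*, *ITGB7*, *LAMB1*, *COL5A2*, *COL5A1* and *COL4A4*, which is 14.0% of the members against 5.40% of all genes tested that rose. Against the 0 members that fell, 4.64% of all genes fell. At an unadjusted p under 0.05, 14 members were higher and 6 lower in knockdown, together 35.1% against 26.9% of all genes. With the DESeq2 Wald test 10 members rose and 1 fell (6.17% and 5.75% of all genes), and with limma-voom 10 and 0 (5.50% and 4.40%). In 14 members all 3 knockdown libraries lay above all 3 controls (24.6%, against 16.4% of all genes), and in 6 all lay below (10.5%, against 15.8%). By family, 5 of 28 collagens, 2 of 11 laminins and 1 of 18 integrins rose. The median log2 fold change was 0.35 over the collagens (22 above 0, 6 below), 0.10 over the laminins (8 and 3) and -0.16 over the integrins (5 and 13), against -0.02 over all genes (7040 and 7837).

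**Figure D1:**
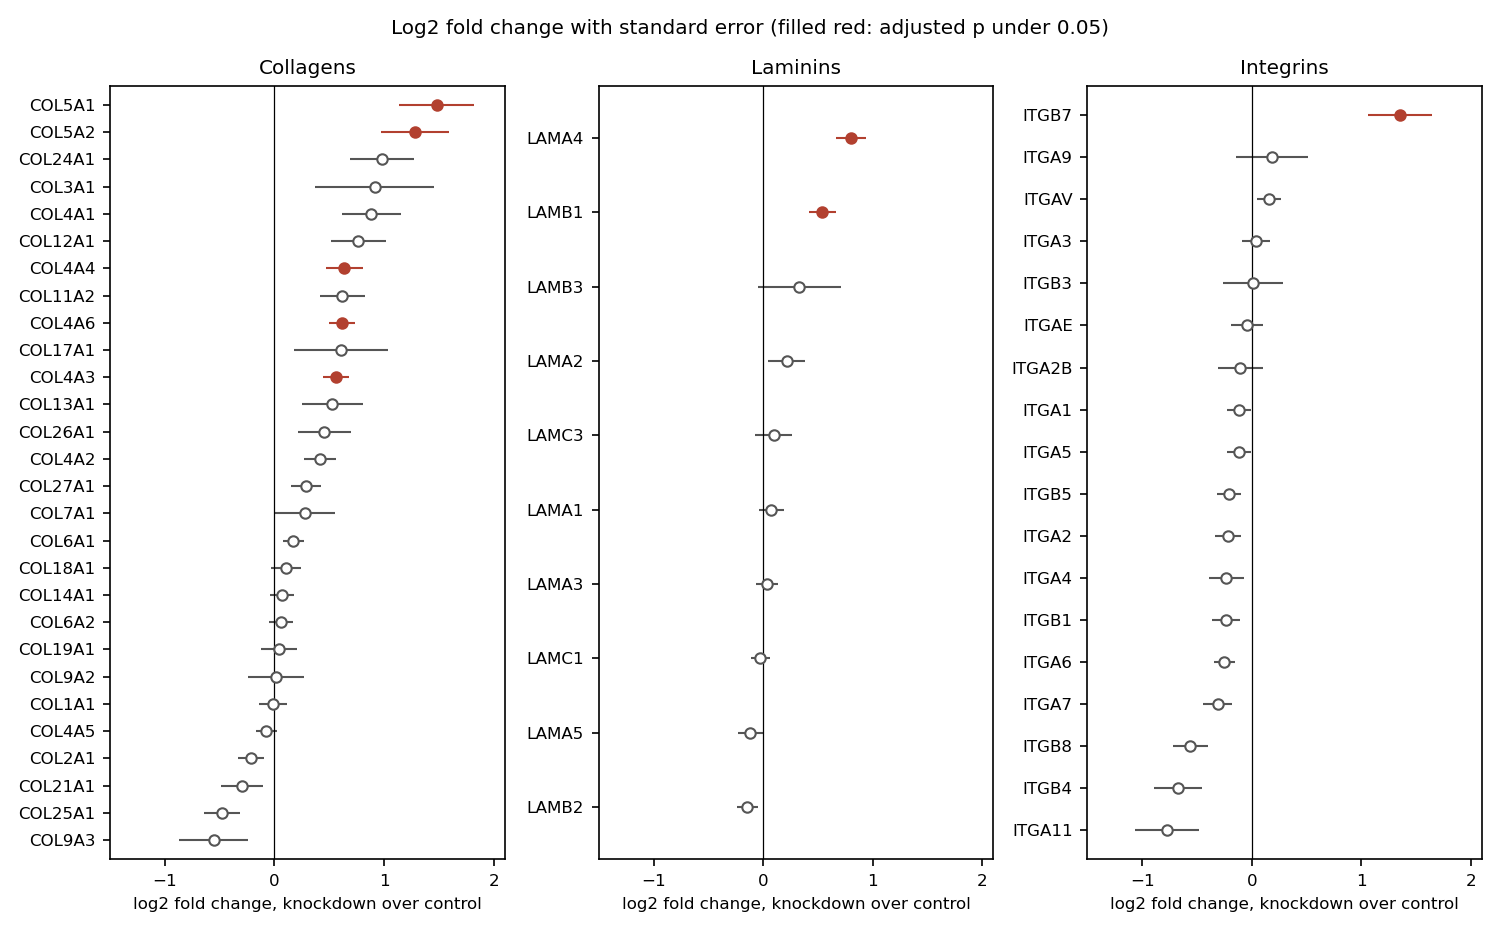
Log2 fold change (knockdown over control, horizontal axis) of 56 of the 57 members by family, with 1 standard error, derived from the edgeR F statistic, on either side. Red filled points mark the 8 genes with an adjusted p under 0.05. Collagens lie mostly to the right of 0 and integrins mostly to the left, *ITGB7* being the exception furthest to the right.

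These counts depended on single libraries. Without knockdown replicate 1, 2 or 3 the members that rose numbered 2, 4 and 2, while 2.25%, 1.91% and 1.97% of all genes rose. Without control replicate 1 they numbered 4 (2.49% of all genes), and without control replicate 3 they numbered 14 (7.18% of all genes). Without control replicate 2, 9 rose and 5 fell, where 8.45% of all genes rose and 8.21% fell, so the falls were near the background. Control replicate 3 was the control nearest to the knockdown mean in 38 of 57 members (66.7%, against 43.4% of all genes tested). It was nearest in 6 of the 8 members that rose (75.0%), beside 62.3% of the 804 genes that rose among all tested. When each library was first adjusted for how its counts followed GC content and the length of transcripts, 8 members rose (background 9.32% of 14471 genes) and 4 fell, *ITGB8*, *ITGB4*, *COL25A1* and *ITGA6* (7.02%, background 10.5%). *COL5A1* left the rising set under that correction (adjusted p = 0.106) and *COL24A1* joined it (adjusted p = 0.0242).

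**Figure D2:**
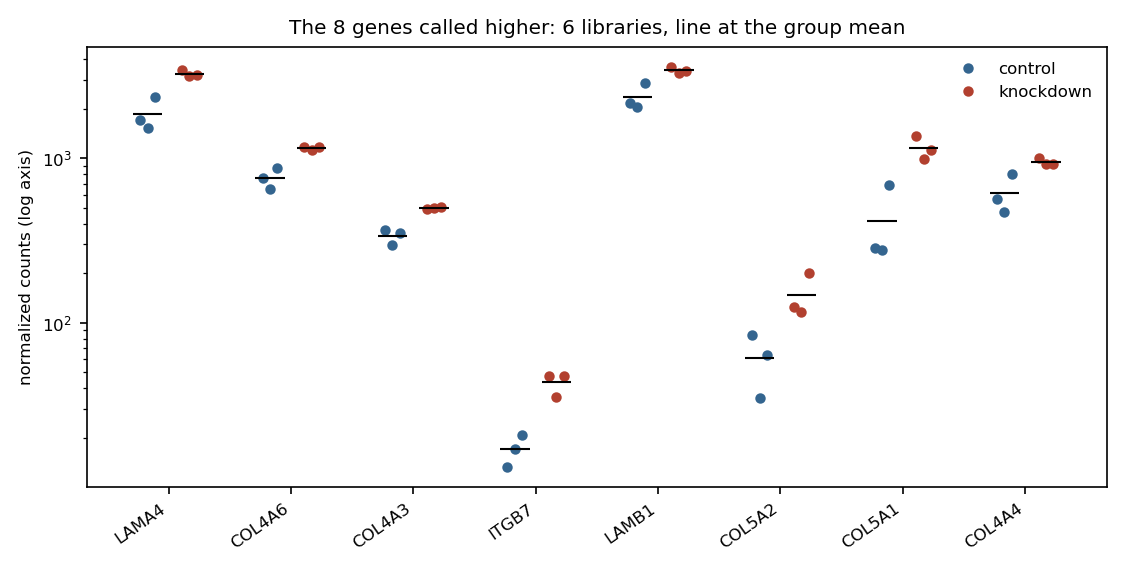
Normalized counts per library (log axis) of the 8 members that rose, for control (blue) and knockdown (red), with a line at each group mean (n = 3). In each gene all red points lie above all blue points. In 6 of the 8 the highest blue point is control replicate 3, as in 62.3% of all genes that rose.

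Type IV collagen has 6 chains, and all 6 were members. They are encoded head to head in pairs, and the chains of a pair do not always share a trimer. In most tissues *COL4A1* and *COL4A2* chains assemble together, the *COL4A3*, *COL4A4* and *COL4A5* chains form the mature glomerular network that is lost in Alport syndrome, and *COL4A5* also assembles with *COL4A6*. Of the 6 genes, *COL4A3*, *COL4A4* and *COL4A6* rose. Part of the DNA between the partners of each pair is shown, and its role in the fold changes was not tested. By RefSeq (GRCh38.p14), the start sites lie 419 bases apart for *COL4A3* and *COL4A4*, 380 for *COL4A5* and *COL4A6*, and 127 for *COL4A1* and *COL4A2*. *COL4A6* has 2 RefSeq windows, of which 1 was used here. By the canonical GENCODE transcripts, the starts of *COL4A5* and *COL4A6* lie 1416 bases apart. Each stretch covers only part of the distance between the RefSeq starts. It is on the plus strand and holds no base of an annotated exon of the pair. Capitals mark matches on either strand to short promoter motifs. The GC box was searched as GGGCGG. The box named for its letters was searched as CCAAT, without allowance for other bases around it. The TATA box was searched as TATAAA, and no motif letters overlap another motif in these stretches.

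COL4A4-COL4A3, 170 bases at chr2:227164454-227164623: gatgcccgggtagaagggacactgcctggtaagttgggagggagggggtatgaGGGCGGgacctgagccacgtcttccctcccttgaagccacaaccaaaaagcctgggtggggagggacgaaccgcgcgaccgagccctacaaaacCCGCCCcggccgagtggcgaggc
COL4A6-COL4A5, 250 bases at chrX:108439588-108439837: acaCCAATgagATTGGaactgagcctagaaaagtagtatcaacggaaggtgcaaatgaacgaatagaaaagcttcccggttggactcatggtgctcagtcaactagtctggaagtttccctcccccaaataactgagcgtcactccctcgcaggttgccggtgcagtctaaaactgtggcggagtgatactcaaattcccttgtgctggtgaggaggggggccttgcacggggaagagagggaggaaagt
COL4A1-COL4A2, 100 bases at chr13:110307158-110307257: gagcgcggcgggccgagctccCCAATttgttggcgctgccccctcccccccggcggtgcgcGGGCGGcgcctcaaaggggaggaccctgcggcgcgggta

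The stretch of the chromosome 2 pair holds 2 GC boxes and no CCAAT box, that of the X pair 2 CCAAT boxes and no GC box, and that of the chromosome 13 pair 1 of each. None holds the TATA box letters. The printed X stretch stops short of the RefSeq start used for *COL4A6*, whose 250 upstream bases (108439459 to 108439708) hold 3 CCAAT boxes. These letters are common, since a GC box is found in 42.6%, a CCAAT box in 32.0% and a TATA box in 10.8% of the 250 bases before 34796 RefSeq starts. Over the 42 members with such a window, the shares were 52.4%, 16.7% and 11.9%.

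On chromosome 2, both partners rose. *COL4A3* (chromosome 2, 227164624 to 227314792, plus strand) stood at 493, 500 and 504 normalized counts in knockdown replicates 1 to 3 and at 367, 295 and 352 in the controls. The knockdown libraries were nearly equal and lay above all controls. Its log2 fold change was 0.56 (SE 0.12, adjusted p = 0.0143). *COL4A4* (227002714 to 227164453, minus strand) had 999, 930 and 931 normalized counts in knockdown and 562, 470 and 809 in control, with a log2 fold change of 0.64 (SE 0.17, adjusted p = 0.0341). Control replicate 3 was the highest control for *COL4A4* but not for *COL4A3*. Both calls were lost without any 1 of the knockdown replicates, with adjusted p of at most 0.0773 for *COL4A3* and 0.130 for *COL4A4*, and that of *COL4A4* also without control replicate 1.

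On chromosome X the partners differed. *COL4A6* (108155607 to 108439497, minus strand) reached 1180, 1132 and 1181 normalized counts in knockdown, against 757, 649 and 877 in control. Its log2 fold change was 0.61 (SE 0.12, adjusted p = 0.00785), and it passed the test in all 14 alternative settings (adjusted p from 0.000129 to 0.0462). *COL4A5* (108439838 to 108697545, plus strand) had 1597, 1828 and 1718 normalized counts in knockdown and 1985, 1706 and 1723 in control. These libraries overlapped, at a log2 fold change of -0.07 (SE 0.10, adjusted p = 0.664).

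On chromosome 13, neither partner passed the main edgeR test. *COL4A1*, one of the chains found in nearly all basement membranes, stood at 3018, 2855 and 2660 normalized counts in knockdown and at 1266, 1032 and 2331 in control. No library overlapped, but control replicate 3 was far closer to the knockdown level than the other controls. The log2 fold change was 0.88 (SE 0.27, adjusted p = 0.0808), and without control replicate 3 it was 1.31 (adjusted p = 0.000242). *COL4A1* passed in 3 of the 14 alternative settings, also with limma-voom (adjusted p = 0.0420) and the replicate block (adjusted p = 0.0451). *COL4A2* had 5331, 5025 and 4866 normalized counts in knockdown and 3393, 3112 and 4890 in control, where control replicate 3 fell within the knockdown range. Its log2 fold change was 0.42 (SE 0.15, adjusted p = 0.0934), and without control replicate 3 it was 0.65 (adjusted p = 0.00261). *COL4A2* also passed in 3 of 14, the others being the DESeq2 Wald test (adjusted p = 0.0415) and the replicate block (adjusted p = 0.0341). Annotated transcripts of these genes overlap on opposite strands. The libraries were prepared with a stranded protocol, but the strand setting of the counting is not given in the sources used here, so reads from the shared stretch may not be separable.

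**Figure D3:**
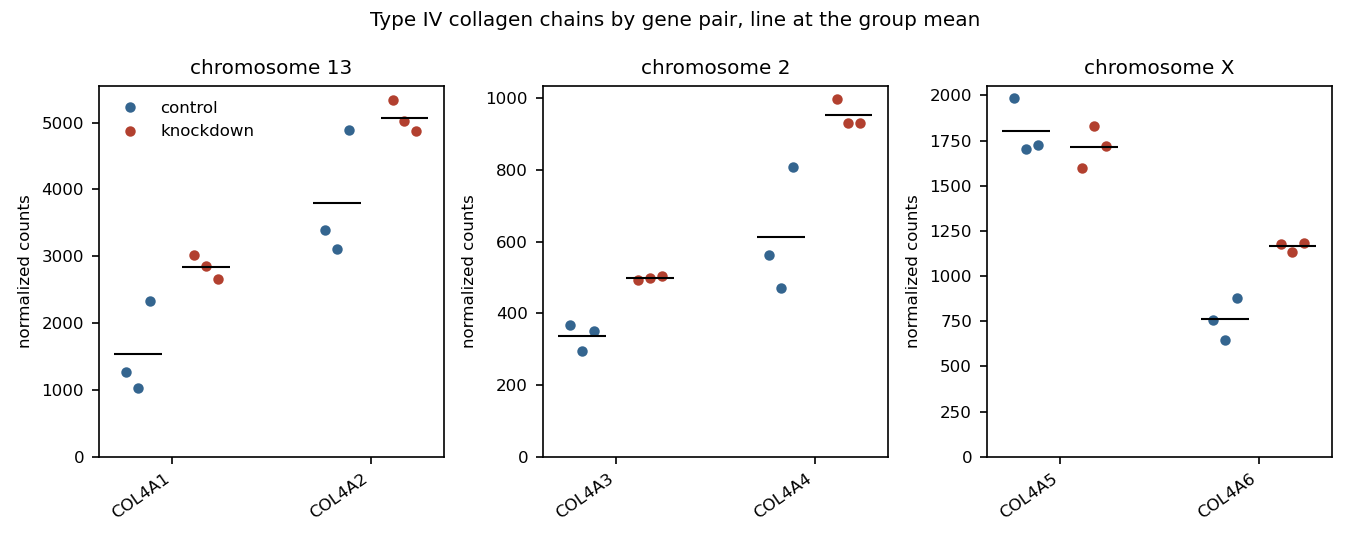
Normalized counts of the 6 type IV collagen chains by gene pair, control in blue and knockdown in red, each point 1 library and each line a group mean (n = 3). *COL4A3*, *COL4A4* and *COL4A6* are separated between groups, *COL4A5* overlaps, and 1 control library of *COL4A1* and *COL4A2* (replicate 3) lies near the knockdown points.

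Of the 8 fibrillar collagens, which build the rope-like fibrils of connective tissue, *COL5A1* and *COL5A2* rose. Their chains form type V collagen, which starts fibrils and limits their diameter, and mutations in either gene cause classical Ehlers-Danlos syndrome. *COL5A1* (chromosome 9, 134641803 to 134844843, plus strand) had 1360, 987 and 1123 normalized counts in knockdown and 287, 276 and 685 in control. The knockdown libraries lay above all controls, of which replicate 3 was well above the others. The log2 fold change was 1.48 (SE 0.34, adjusted p = 0.0327), the largest in size among the members. This call held in 7 of 14 alternative settings only, and in 1 of the 6 that leave out a library, the one without control replicate 3 (log2 fold change 2.05). *COL5A2* (chromosome 2, 189031898 to 189225312, minus strand) had 125, 117 and 202 normalized counts in knockdown and 84.7, 34.8 and 63.8 in control. Its log2 fold change was 1.28 (SE 0.31, adjusted p = 0.0235), and the call was lost without knockdown replicate 1 or 3.

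The other fibrillar collagens did not pass the main edgeR test. *COL24A1*, a minor fibrillar collagen, had 60.7, 84.5 and 115 normalized counts in knockdown and 44.9, 30.4 and 56.6 in control, with no overlap (log2 fold change 0.98, SE 0.29, adjusted p = 0.0569). *COL24A1* passed in 5 of the 14 alternative settings, among them the DESeq2 Wald test (adjusted p = 0.0227). *COL3A1*, the adjacent gene to *COL5A2* and a chain of type III collagen in vessels and skin, was low and scattered, at 20.2, 28.2 and 74.1 in knockdown and 31.6, 8.93 and 24.7 in control (log2 fold change 0.91, SE 0.54, adjusted p = 0.316). Together with *COL4A1* these were the 3 members of largest change that did not pass. *COL2A1*, the cartilage collagen and the most abundant fibrillar chain per kilobase over all libraries, had means of 683 ± 45.3 (SD, n = 3) normalized counts in knockdown and 791 ± 101 in control (log2 fold change -0.21, SE 0.12, adjusted p = 0.283). *COL1A1*, the main chain of bone and skin collagen, had 647 ± 89.6 and 652 ± 60.6 (log2 fold change -0.01, SE 0.13, adjusted p = 0.966). *COL11A2*, a minor fibrillar chain of cartilage, had 157, 152 and 184 normalized counts in knockdown and 125, 75.9 and 121 in control (log2 fold change 0.62, SE 0.21, adjusted p = 0.0806). *COL27A1*, another cartilage collagen, had 444, 430 and 479 in knockdown and 391, 300 and 419 in control (log2 fold change 0.29, SE 0.14, adjusted p = 0.214). In these 2 genes, as in *COL5A1*, *COL5A2* and *COL24A1*, all knockdown libraries lay above all controls, which makes 5 of the 8 (62.5%, against 16.4% of all genes), and the median log2 fold change of the class was 0.77. Per kilobase, the level of *COL5A1* was 49.3 in control and 137 in knockdown, beside 156 and 135 for *COL2A1*.

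None of the 14 collagens outside the fibrillar and network classes passed the main edgeR test, and 2 of them, *COL12A1* and *COL25A1*, had an unadjusted p under 0.05. Type VI collagen forms beaded microfibrils at the cell surface. *COL6A1* had 2910, 2765 and 2847 normalized counts in knockdown and 2316, 2382 and 2867 in control (log2 fold change 0.17, SE 0.10, adjusted p = 0.290), and *COL6A2* had group means of 1185 and 1134 (log2 fold change 0.06, SE 0.11, adjusted p = 0.758). Control replicate 3 of *COL6A1* lay in the knockdown range. Of the fibril-associated collagens, *COL12A1* had 1916, 1898 and 1982 normalized counts in knockdown and 995, 752 and 1665 in control, without overlap (log2 fold change 0.77, SE 0.25, adjusted p = 0.0987). *COL12A1* passed in 4 of the 14 alternative settings, among them limma-voom (adjusted p = 0.0496) and the replicate block (adjusted p = 0.00219). *COL14A1*, which resembles it in structure, had means of 1140 and 1088 with overlap (log2 fold change 0.07, SE 0.11, adjusted p = 0.732). *COL25A1*, a membrane-spanning collagen needed for the motor innervation of muscle, was the only collagen whose knockdown libraries all lay below the controls, at 202, 274 and 261 against 381, 280 and 369 normalized counts (log2 fold change -0.48, SE 0.16, adjusted p = 0.0855). The gap between its groups was narrow, between knockdown replicate 2 and control replicate 2. *COL18A1* had means of 1254 ± 42.2 and 1165 ± 256 (log2 fold change 0.11, SE 0.14, adjusted p = 0.664).

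Among the 11 laminin chains, *LAMA4* and *LAMB1* rose. A laminin is a heterotrimer of an alpha, a beta and a gamma chain, and the alpha 4, beta 1 and gamma 1 chains assemble in the laminin of vessels, muscle and nerve. *LAMA4* (chromosome 6, 112107931 to 112254939, minus strand) had 3429, 3170 and 3212 normalized counts in knockdown and 1713, 1539 and 2370 in control. The lowest knockdown library exceeded the highest control, replicate 3. The log2 fold change was 0.80 (SE 0.14, adjusted p = 0.00483), the smallest adjusted p of the members, and the test was passed in all 14 alternative settings (adjusted p up to 0.0365, log2 fold change from 0.68 to 1.01 with 1 library left out). *LAMB1* (chromosome 7, 107923799 to 108003213, minus strand) had 3600, 3305 and 3387 normalized counts in knockdown and 2167, 2053 and 2861 in control. Its log2 fold change was 0.54 (SE 0.12, adjusted p = 0.0173). That call was lost without any 1 knockdown replicate or control replicate 1 (adjusted p up to 0.0848). *LAMB1* overlaps *DLD* on the opposite strand, whose log2 fold change was -0.20 (adjusted p = 0.226).

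Their gamma partner did not move with them. *LAMC1* had 12100, 12150 and 11680 normalized counts in knockdown and 12940, 11750 and 11880 in control (log2 fold change -0.03, SE 0.09, adjusted p = 0.883). *LAMB2*, the beta chain of the mature glomerular basement membrane, had 2152, 1955 and 2018 normalized counts in knockdown and 2332, 2431 and 2012 in control (log2 fold change -0.15, SE 0.10, adjusted p = 0.362). Of the remaining alpha chains, *LAMA1*, the chain of early embryonic basement membranes, had means of 499 ± 11.4 and 473 ± 34.95 (log2 fold change 0.08, adjusted p = 0.702), and *LAMA5*, the main alpha chain of the adult kidney, 2475 ± 257 and 2684 ± 339 (log2 fold change -0.12, adjusted p = 0.546). By the edgeR test, 1 alpha and 1 beta chain of the 11 laminin members thus passed. *LAMA2* did not pass (log2 fold change 0.22, adjusted p = 0.443), though its knockdown libraries all lay above the controls. With *LAMA4* and *LAMB1* this makes 3 of 11 (27.3%, against 16.4% of all genes), and in 0 all lay below.

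Of the 18 integrin subunits, 1 passed the test. *ITGB7* (chromosome 12, 53191323 to 53207282, minus strand), the beta subunit that guides lymphocytes to the gut, was low, at 47.2, 35.5 and 47.2 normalized counts in knockdown and 13.3, 16.96 and 20.6 in control. The groups did not overlap, and the log2 fold change was 1.35 (SE 0.29, adjusted p = 0.0149). The call was lost without knockdown replicate 1 or 3 or control replicate 1 (adjusted p up to 0.0755). It was the least abundant gene of the 8 that rose. *ITGB7* overlaps *ZNF740* on the opposite strand, which had a mean of 939 counts and a log2 fold change of -0.08 (adjusted p = 0.625). Its known alpha partners *ITGA4* and *ITGAE* had log2 fold changes of -0.23 (adjusted p = 0.380) and -0.05 (adjusted p = 0.873). Of the blood markers, *CD14* alone reached 10 counts in a library, and the list summed to 13.6 to 23.6 normalized counts in knockdown and 7.20 to 23.5 in control.

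In 5 other integrins (27.8% of 18, against 15.8% of all genes) all knockdown libraries lay below all controls, and none of them passed the adjusted threshold. *ITGB8*, which with alpha V activates latent TGF-beta, had 215, 286 and 292 normalized counts in knockdown and 450, 324 and 395 in control. It missed narrowly (log2 fold change -0.56, SE 0.16, adjusted p = 0.0503) and passed in 5 of the 14 alternative settings, among them the GC and length correction (adjusted p = 0.00539) and the DESeq2 Wald test (adjusted p = 0.0183). *ITGB4*, the hemidesmosome subunit, had 89.6, 55.3 and 81.6 normalized counts in knockdown and 143, 117 and 102 in control (log2 fold change -0.67, SE 0.22, adjusted p = 0.0790). Its partner *ITGA6*, the most abundant alpha subunit per kilobase, had 2106, 2176 and 2133 in knockdown and 2849, 2254 and 2534 in control (log2 fold change -0.25, SE 0.10, adjusted p = 0.127). The hemidesmosome partners were thus both lower without overlap. The remaining 2 were *ITGA7*, a laminin receptor of muscle (log2 fold change -0.31, adjusted p = 0.163), and *ITGA11*, a receptor of fibrillar collagen, at 18.8 ± 3.99 against 32.2 ± 3.72 (log2 fold change -0.77, SE 0.29, adjusted p = 0.118).

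The most abundant integrin, *ITGB1*, had 6778, 7614 and 7357 normalized counts in knockdown and 8293, 6937 and 10370 in control (log2 fold change -0.24, SE 0.13, adjusted p = 0.280). The controls spread more widely than the knockdown libraries and overlapped them. By ligand, the collagen receptors *ITGA1* and *ITGA2* had log2 fold changes of -0.12 and -0.22, the laminin receptor *ITGA3* of 0.04, the fibronectin receptor *ITGA5* of -0.12, and *ITGAV*, which binds vitronectin and latent TGF-beta, of 0.16 (adjusted p from 0.286 to 0.892). None of these separated the groups.

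Paired chains were then compared as a ratio within each library, which does not depend on library scaling. The 4 collagen pairs are chains that assemble together, while *LAMB1* with *LAMB2* and *LAMA1* with *LAMA5* are alternatives for the same position in a laminin. For these 6 pairs the log2 ratio was compared between groups by an exact two-sided permutation test, for which 3 libraries against 3 cannot give a p below 0.1. *COL4A1* to *COL4A2* was -0.84 ± 0.03 (SD, n = 3) in knockdown and -1.36 ± 0.27 in control, higher by 0.53 in knockdown. *COL4A5* to *COL4A6* was 0.56 ± 0.13 and 1.25 ± 0.24, lower by 0.70 (difference -0.70). *LAMB1* to *LAMB2* was 0.75 ± 0.01 and 0.05 ± 0.40, higher by 0.70. In these 3 pairs the groups did not overlap, which gave the smallest p the permutation test allows, 0.1 (0.2 after Benjamini-Hochberg adjustment over the 6 pairs). The ratios of *LAMA1* to *LAMA5*, *COL5A1* to *COL5A2* and *COL6A1* to *COL6A2* overlapped, with differences of 0.19, 0.27 and 0.11 and permutation p of 0.3, 0.6 and 0.7. Since each difference joins the values of genes already described, it is no separate evidence for them.

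Genes that act with these proteins were read as 5 lists, against 5.40% of all genes that rose, 4.64% that fell and 26.9% with an unadjusted p under 0.05. Of 31 tested genes of collagen maturation, 2 rose (6.45%) and 1 fell (3.23%), shares near those of all genes (median log2 fold change 0.02). *P4HB*, the beta subunit of prolyl 4-hydroxylase, rose by 0.46 (SE 0.10, adjusted p = 0.0136), from 6674, 7963 and 7920 normalized counts in control to 11040, 9972 and 10080. *FKBP14*, a prolyl isomerase of the endoplasmic reticulum, rose by 0.64 (SE 0.13, adjusted p = 0.0100). *PLOD2*, the lysyl hydroxylase that acts on collagen telopeptides, had a log2 fold change of -0.42 (SE 0.09, adjusted p = 0.0174), from 2123 ± 181 in control to 1588 ± 86.0. The remaining 28 genes did not pass.

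Of 20 tested proteins that share the basement membrane or matrix with the members, 3 rose (15%) and 0 fell by the edgeR test (median 0.08, 9 or 45% at an unadjusted p under 0.05 in either direction), and 5 rose by the DESeq2 Wald test. *NTN4*, a netrin that binds laminin gamma chains and disturbs laminin networks, had 315, 310 and 316 normalized counts in knockdown and 171, 160 and 164 in control, a log2 fold change of 0.93 (SE 0.13, adjusted p = 0.00130). *FBN1*, fibrillin, rose by 0.63 (SE 0.12, adjusted p = 0.00710), and *SMOC1*, a calcium-binding basement membrane protein, by 0.42 (SE 0.11, adjusted p = 0.0366). For *NTN4* the spread within each group was small beside the gap between them.

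Of 30 tested adaptors at the integrin tail, 0 rose and 5 fell by the edgeR test (16.7%, median -0.08), 11 (36.7%) had an unadjusted p under 0.05 in either direction, against 4.64% of all genes that fell and 26.9% at that unadjusted p, and by the DESeq2 Wald test 1 rose. These were *VCL*, vinculin, which ties talin to actin (log2 fold change -0.35, adjusted p = 0.0240), *TNS1* and *TNS2*, tensins of fibrillar adhesions (-0.64 and -0.62, adjusted p = 0.0466 and 0.0165), and *KANK1* and *KANK2*, which bind talin at the adhesion rim (-0.63 and -0.43, adjusted p = 0.00406 and 0.0171). *KANK1* had 443, 451 and 464 normalized counts in knockdown and 734, 652 and 713 in control, with a clear gap between groups. The list did not move one way. In 6 of the 30 adaptors all knockdown libraries lay above all controls, and in 6 all lay below. At an unadjusted p under 0.05, the talins *TLN1* (0.33) and *TLN2* (0.42), the tensin *TNS3* (0.42), *PTK2* (0.23) and *PTK2B* (0.55) were higher. None of these passed (adjusted p from 0.0595 to 0.144). *TGFB1I1* was lower (-0.55) and did not pass either (adjusted p = 0.108). Of 12 tested matrix receptors other than integrins, 0 rose and 2 fell (16.7%, median -0.05, 5 at an unadjusted p under 0.05, 1 rise by DESeq2), *DDR1*, a collagen receptor tyrosine kinase (-0.59, SE 0.13, adjusted p = 0.0139), and *CD47*, an integrin-associated receptor of thrombospondin (-0.80, SE 0.12, adjusted p = 0.00217). Of 18 tested matrix proteases and inhibitors, 0 rose and 3 fell (16.7%, median -0.16, 9 at an unadjusted p under 0.05). They were *PLAU*, urokinase (-1.15, SE 0.31, adjusted p = 0.0373), its receptor *PLAUR* (-0.92, SE 0.22, adjusted p = 0.0225), and *RECK*, a membrane-bound inhibitor of matrix proteases (-0.54, SE 0.14, adjusted p = 0.0322). In 2 of the 18 all knockdown libraries lay above all controls (11.1%), and in 6 all lay below (33.3%). The counts of these lists are small, and each moved by over 1.5 times in at least 1 alternative setting. Without any 1 knockdown library or without control replicate 1, the 3 proteases and inhibitors that fell became 0 and the 5 adaptors became 1 to 3.

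Position was shared by several members. Within 500 kb of each other lay 10 pairs of members, of which 3 are the type IV pairs. In the pair of *COL3A1* and *COL5A2*, 19151 bases apart and convergent, 1 rose, and in 1 pair, *COL4A3* with *COL4A4*, both did. In the pairs *COL6A1* with *COL6A2*, *COL1A1* with *ITGA3* and *ITGA1* with *ITGA2*, the log2 fold changes ran from -0.22 to 0.17. *COL9A3* and *LAMA5* had -0.55 and -0.12, and *COL18A1* and *COL6A1* had 0.11 and 0.17, none of which passed. The canonical transcripts of the 8 genes that rose had a median GC content of 49.4% (45.1 to 60.25) and a median length of 7028 bases. The 49 other members had medians of 54.6% and 5941 bases, and all genes tested 48.6% and 3286 bases. The members thus had longer transcripts than most genes tested, and those that rose were lower in GC content at the median than the other members. The part of either property in the fold changes was not tested beyond the correction given above.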

How the data were processed

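RNA-seq was measured in 6 HEK293 cultures. The authors deposited raw read counts per gene, whole numbers without normalization. The submitters' processing notes name FastQC 0.11.9, Trim Galore 0.6.6, STAR 2.7.9a, featureCounts 2.0.1 and hg38, and the study's methods add removal of ribosomal RNA. The gene annotation, strand setting and handling of multi-mapping reads are not given in the sources used here. Groups and replicate numbers were taken from the labels.

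Genes passing filterByExpr were scaled by TMM, and the quasi-likelihood test of edgeR 4.0.16 (robust, R 4.3.3) was run over the whole table, with Benjamini-Hochberg adjustment and a threshold of 0.05. Standard errors were derived as the absolute log2 fold change divided by the square root of the F statistic. At this depth the biological coefficient of variation was 12.4%. Positions, GC content and length came from GENCODE release 44 (GRCh38), for 97.3% of the genes tested, and promoter windows from RefSeq. Levels per kilobase used the canonical transcript. The edgeR fit with and without the replicate block, the DESeq2 Wald test and limma-voom were tested on simulated counts. The GC and length correction was not.

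Alternatives were DESeq2 1.42.0 size factors or library sizes alone, other filters, the replicate number as a block, GC and length correction (loess, span 0.3), the DESeq2 Wald test, limma-voom (limma 3.58.1) and each library left out. Ratios used exact permutation tests (scipy 1.17.1).

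Named genes were the members that passed, the most abundant member of each of 11 classes, the chains of the 6 pairs, the 3 largest changes that did not pass, and at most 5 genes that passed per related list. Other members were named after their values were seen, for their families. Members, lists and tests were chosen with earlier results of these data known, and 1 symbol of the stated form was left out. Single results of 2 genes of these families are not reported here.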

Additional observations from a re-analysis of the deposited data

How the results depend on the processing

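With 3 cultures a group, leaving out 1 library moved most counts. Members that rose ranged from 2 to 14 and those that fell from 0 to 5. For the related lists the ranges of rises and falls were 0 to 4 and 0 to 1 for collagen maturation, 2 to 5 and 0 to 1 for other basement membrane and matrix proteins, 0 to 4 and 1 to 6 for integrin adaptors, 0 to 2 and 1 to 2 for other matrix receptors, and 0 to 1 and 0 to 4 for matrix proteases and inhibitors. Fewer cultures enter these fits. *LAMA4* and *COL4A6* were the 2 members that passed in all settings run.

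The labels do not say whether same-numbered cultures were paired. Libraries with the same replicate number had correlations of -0.20, -0.11 and -0.04 in their deviations from the group means. The culture labels are numbered otherwise, and KD-1 (knockdown replicate 1) with NC-1 (control replicate 3) had a correlation of -0.01. With 3 libraries a group, these values cannot settle the pairing. With the replicate block, 12 members rose and 1 fell, 714 of all genes rose and 619 fell, and 3 integrin adaptors fell. The GC and length correction gave 4 members that fell, 3 other matrix proteins that fell, 1 matrix receptor that rose, and 2 proteases or inhibitors that rose with 6 that fell, against 1348 rises and 1523 falls over all genes. The DESeq2 Wald test gave 10 members that rose and 1 that fell, 5 other matrix proteins that rose, and 1 integrin adaptor and 1 matrix receptor that rose. Without a filter 1 member fell and 1 adaptor rose, with library sizes alone 1 adaptor rose, and with at least 10 counts in every library 1 protease or inhibitor rose. The causes were not tested.

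Over 73 named genes, 894 alternative values kept direction and side of the threshold, 69 lost the call, 30 gained one and 29 changed sign, the largest of them at -0.23. Under the GC and length correction *COL9A2* turned to -0.018, *LAMA3* to -0.045 and *ITGB3* to -0.037, and *ITGB3* also turned to -0.011 with the replicate block and -0.0082 with limma-voom. With 1 library left out, values crossed 0 in 15 genes: *COL14A1* (-0.028 to 0.13), *COL18A1* (-0.0006 to 0.30), *COL19A1* (-0.032 to 0.11), *COL1A1* (-0.13 to 0.050), *COL6A2* (-0.022 to 0.18), *COL9A2* (-0.13 to 0.18), *ITGA2B* (-0.25 to 0.059), *ITGA3* (-0.087 to 0.12), *ITGA9* (-0.16 to 0.38), *ITGAE* (-0.14 to 0.10), *ITGB3* (-0.23 to 0.21), *LAMA3* (-0.040 to 0.12), *LAMB3* (-0.11 to 0.72), *LAMC1* (-0.052 to 0.020) and *LAMC3* (-0.014 to 0.17). None of these genes passed with all libraries.

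Leaving out a library for the chain ratios was added after seeing the data. The difference of *COL4A1* to *COL4A2* ranged from 0.41 to 0.67, *COL4A5* to *COL4A6* from -0.84 to -0.63, *LAMB1* to *LAMB2* from 0.55 to 0.92, *LAMA1* to *LAMA5* from 0.05 to 0.29, *COL5A1* to *COL5A2* from -0.21 to 0.63 and *COL6A1* to *COL6A2* from -0.037 to 0.22. The last 2 changed sign. Standard errors of *ITGB7*, *ITGA11* and *COL3A1*, each with few counts, were 0.29 to 0.54 on the log2 scale. More abundant members such as *COL5A1* (0.34) and *LAMB3* (0.38) had errors in the same range, and the part of depth in them was not tested.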

Other observations

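The 25 symbols of the same form with fewer than 10 counts in some library were left out of the members, and 8 of them were tested. *COL20A1*, a fibril-associated collagen, had 36, 11 and 16 counts in the knockdown libraries and 8, 5 and 6 in the controls, and rose (edgeR log2 fold change 1.76, SE 0.50, adjusted p = 0.0475). Its lowest knockdown library lay 3 counts above its highest control, and these counts are close to the filter. *COL1A2*, the partner of *COL1A1* in type I collagen, had 39, 40 and 108 counts in knockdown and 59, 0 and 23 in control, where control replicate 2 held none of its reads (log2 fold change 1.24, SE 0.93, adjusted p = 0.442). *COL6A3*, the chain that completes the trimer with *COL6A1* and *COL6A2*, had 4, 7 and 14 counts in knockdown and 1, 0 and 0 in control and was not tested. The leukocyte subunits *ITGAL*, *ITGAM* and *ITGB2* stayed under 10 counts in all 6 libraries.

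Among markers of other cell types, the proximal tubule list had the highest sum, through *LRP2*, megalin, the endocytic receptor of the tubule. *LRP2* had 548, 623 and 570 counts in knockdown and 1120, 1125 and 745 in control, and its 3 listed genes together summed to 556 to 679 normalized counts in knockdown and 800 to 1172 in control, so the groups did not overlap. *NEFM*, a neurofilament gene of the HEK293 background list, had 846, 612 and 574 counts in knockdown and 294, 296 and 603 in control, where control replicate 3 fell within the knockdown range, as it did for *COL4A2* and *COL6A1*.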
